A study of Mus musculus with 4 samples.

Results

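The proteasome genes described here are the 49 genes of the array whose symbol starts with Psma, Psmb, Psmc, Psmd, Psme, Psmf or Psmg followed by a digit. They are read by 94 probes, of 56605 probes on the array that are not controls. Probes detected above background on both PGE2 arrays, or on both control arrays, were used, which left 84 of the 94 probes and 47 of the 49 genes, within 17660 tested genes or unnamed probes. The 2 genes without such a probe were Psma8 (an alpha subunit of the testis) and Psmb11 (the active-site subunit of the thymus), whose 3 probes were below the background criterion on all arrays. Psmc3ip matches by its symbol but is a meiotic recombination gene and no subunit. RNA came from 2 cultures of mouse aortic vascular smooth muscle cells given PGE2 (prostaglandin E2) for 24 h, and from 2 control cultures left untreated for 24 h. All 4 cultures were of adult C57BL/6J mice with the genotype EP4-Tg, grown out of aortic explants and kept in DMEM, and each was read on 1 single-colour Agilent array. EP4 is a PGE2 receptor that raises cyclic AMP. Neither the PGE2 dose nor the promoter of the transgene is given in the sources used here. All cultures carry it, so no value compares cells with and without it.

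The proteasome degrades proteins tagged with ubiquitin. Its barrel-shaped core has outer rings of alpha subunits, which gate the entry, and inner rings of beta subunits, 3 of which (Psmb5, Psmb6 and Psmb7) carry the active sites. A regulatory cap of ATPase and non-ATPase subunits recognises, unfolds and feeds in the substrate. Interferon induces alternative active-site subunits (Psmb8, Psmb9 and Psmb10), which replace Psmb5, Psmb6 and Psmb7 to form the immunoproteasome, and the activator subunits Psme1 and Psme2. Both changes are best known for shaping the peptides shown on MHC class I. When proteasome activity is low, the transcription factor NRF1 (Nfe2l1) raises the genes of core and cap together, and its relative NRF2 (Nfe2l2) can act on the same DNA element.

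The promoters of 5 genes on which the results turn are shown first, as RefSeq gives them for build GRCm38.p6, from 250 bases before to 50 bases after the start of the transcript. In Psmb5, Psmb6 and Psme4 the capitals mark the match to TGACNNNGC, the element bound by NRF1 and NRF2, which in Psme4 lies on the opposite strand. In Psmb9 they mark the reverse strand of CCAAT, bound by NF-Y, and Psmb8, which holds neither, has no capitals.
Psmb5 (chr14:54617946-54618245, - strand): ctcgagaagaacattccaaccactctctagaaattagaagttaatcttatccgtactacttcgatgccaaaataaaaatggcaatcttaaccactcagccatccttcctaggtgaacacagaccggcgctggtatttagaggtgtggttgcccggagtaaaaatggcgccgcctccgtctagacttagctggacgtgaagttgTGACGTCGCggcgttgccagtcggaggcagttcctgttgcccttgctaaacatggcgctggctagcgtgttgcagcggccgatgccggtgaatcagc
Psmb6 (chr11:70525107-70525406, + strand): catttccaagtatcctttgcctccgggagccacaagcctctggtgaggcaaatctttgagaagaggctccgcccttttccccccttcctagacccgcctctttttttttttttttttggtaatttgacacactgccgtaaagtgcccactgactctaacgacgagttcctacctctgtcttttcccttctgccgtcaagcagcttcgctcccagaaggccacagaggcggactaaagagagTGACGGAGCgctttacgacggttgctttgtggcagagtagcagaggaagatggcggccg
Psme4 (chr11:30771525-30771824, + strand): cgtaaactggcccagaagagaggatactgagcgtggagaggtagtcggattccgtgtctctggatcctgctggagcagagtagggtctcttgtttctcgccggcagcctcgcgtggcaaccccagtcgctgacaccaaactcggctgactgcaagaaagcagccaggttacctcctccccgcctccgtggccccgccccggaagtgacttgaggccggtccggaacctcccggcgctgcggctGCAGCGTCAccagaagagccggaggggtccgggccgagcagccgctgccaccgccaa
Psmb8 (chr17:34197945-34198244, + strand): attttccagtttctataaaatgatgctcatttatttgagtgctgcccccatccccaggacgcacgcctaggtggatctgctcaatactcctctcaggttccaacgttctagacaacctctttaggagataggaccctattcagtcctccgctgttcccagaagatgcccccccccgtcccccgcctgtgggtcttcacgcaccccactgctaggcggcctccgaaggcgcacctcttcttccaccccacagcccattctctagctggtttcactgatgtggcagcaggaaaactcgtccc
Psmb9 (chr17:34187281-34187580, - strand): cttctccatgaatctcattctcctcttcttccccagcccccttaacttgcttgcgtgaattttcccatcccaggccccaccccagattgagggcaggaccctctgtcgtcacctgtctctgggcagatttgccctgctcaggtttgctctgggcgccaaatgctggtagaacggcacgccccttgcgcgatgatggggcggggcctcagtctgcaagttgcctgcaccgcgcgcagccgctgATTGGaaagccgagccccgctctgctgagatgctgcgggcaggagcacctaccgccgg

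Promoter windows of 41 of the 49 genes were matched by gene ID, and those of Psma8, Psmb1, Psmb2, Psmb7, Psmc3, Psmd3, Psmd7 and Psmg2 were not shown or searched. Each motif was searched on both strands and could overlap another. TGACNNNGC was found in 6 of the 41 genes (14.6%) and in 14% of the 27025 genes with a window, so its share in the proteasome genes was close to that of all promoters. The CREB site TGACGTCA was in 0 of 41 against 2.03% of all genes. CCAAT was in 15 (36.6%) against 41.1%. The ETS motif CCGGAAG was in 15 of 41 genes (36.6%) against 9.93% of all genes. The Psmb9 window shares 275 of its 300 bases with the window of Tap1, a peptide transporter gene read in the opposite direction. These matches describe the letters in these windows and not the binding of a factor.

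Each array detected 47.9% to 53.8% of its 59305 non-control spots above background. None of the proteasome probes was saturated, and 83 of the 94 were above background on all 4 arrays. Levels are given as log2 of the processed intensity minus the 75th percentile of the array, and changes as the PGE2 mean minus the control mean ± the SE from limma (n = 2 arrays per group throughout). The number of arrays limits the precision of every value. The study calls the cultures biological replicates but names no animals, so p-values measure the spread between these cultures. For bright probes the control arrays differed from each other more than the PGE2 arrays did. Over the 4415 genes brightest by mean level, of 4 equal groups, which hold 34 of the 47 proteasome genes, control 2 lay at a median of -0.22 against control 1, while PGE2 2 lay at -0.04 against PGE2 1. The median change of these genes between the groups was -0.02.

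With PGE2, most genes of the proteasome core and cap stood slightly higher and those of the immunoproteasome lower, but none of the 47 genes passed the test (limma, Benjamini-Hochberg adjusted p under 0.05), where 0.668% of all tested genes did. Of the 47, 38 had a change above 0 and 9 below, with a median of 0.24 on the log2 scale, beside 47.3% above 0 and a median of -0.03 over all tested genes. At an unadjusted limma p under 0.05 there were 5 genes (17.8% of all tested genes), with Psma1, Psma4 and Psme4 higher (7.31%) and Psmb8 and Psmb9 lower (10.5%). The groups did not overlap in 25 genes (52.2% of all tested genes). Both PGE2 arrays lay above both control arrays in 20 (24.0%) and below them in 5 (28.3%). The count without overlap was close to its background, whereas more proteasome genes than the background had PGE2 above control and fewer had it below. The count at the unadjusted threshold was below its background.

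The size of that shift depended on which arrays were used, and most on which control array. Control 2 was the lowest of the 4 arrays in 40 of the 47 genes, against 31.5% of all tested genes and 43.5% of those 4415 bright genes. In the 31 constitutive core and cap genes, control 1 exceeded control 2 in every one, by 0.20 to 0.61 with a median of 0.40, which is more than their median change of 0.25 with PGE2. Without control 2 the median of the 47 genes was 0.04 and 28 were above 0. Without control 1 it was 0.40, with 41 above 0. The median was 0.12 without PGE2 1 and 0.28 without PGE2 2. PGE2 1 was the highest of the 4 arrays in 29 of the 47 genes, against 4831 of the 17660 tested genes. The 5 genes with both PGE2 arrays below both control arrays were Psmb8, Psmb9, Psme2b, Psmd8 and Psmg4.

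**Figure D1:**
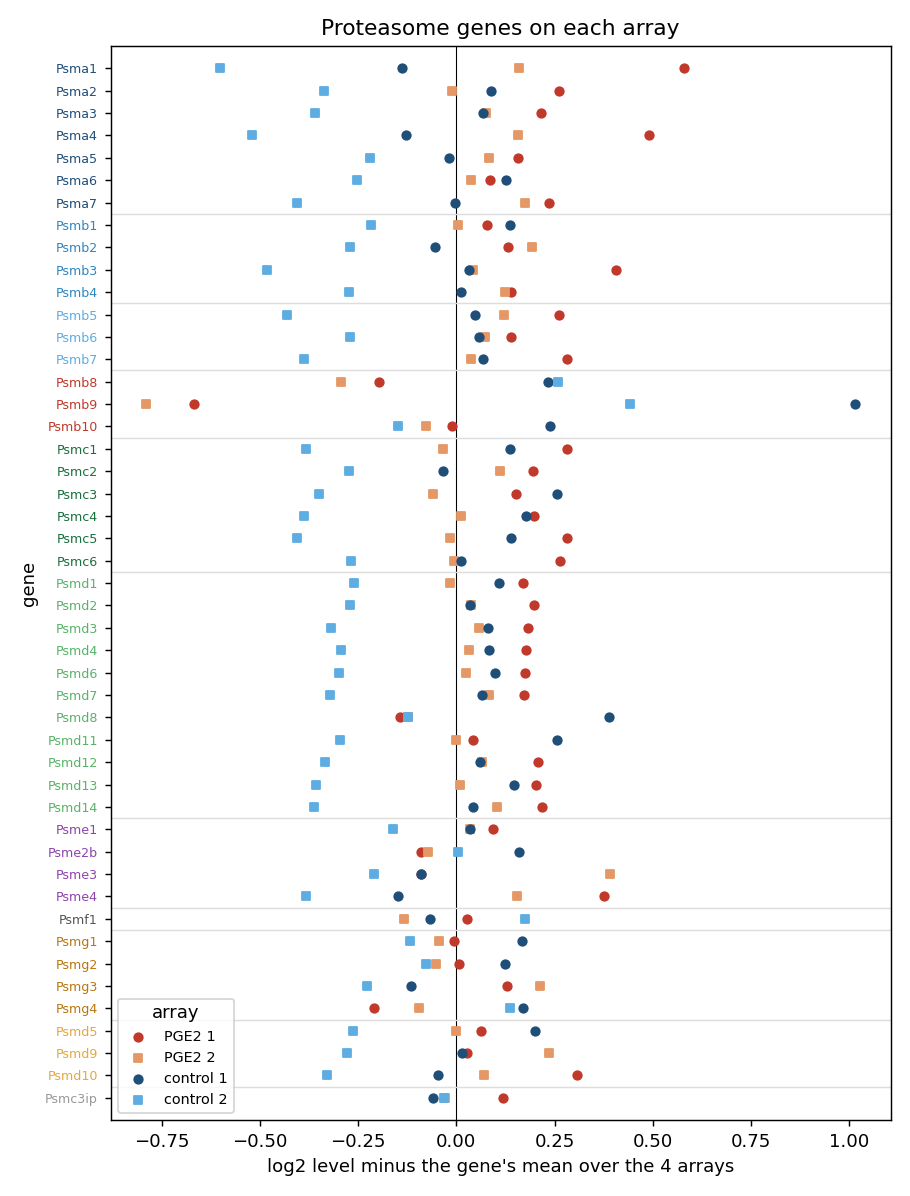
Each row is 1 of the 47 tested proteasome genes and each point 1 array, placed by its log2 level minus the mean of the gene over the 4 arrays, with gene names coloured by role. Control 2 (light blue squares) is the leftmost point in 40 of the 47 rows, while Psmb8 and Psmb9 show both PGE2 arrays on the left.

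The 14 core genes all had a change above 0 (47.3% of all tested genes), with a median of 0.31. In 10 of them both PGE2 arrays were above both control arrays (24.0% of all tested genes). Control 2 was the lowest of the 4 arrays in all 14 (31.5% of all tested genes). Of the 7 alpha genes, Psma1, which encodes a subunit of the outer ring, had levels of 4.91 and 4.49 on the PGE2 arrays, against 4.19 and 3.73 on the control arrays. The groups did not overlap, and the change was 0.74 ± 0.26 (adjusted p = 0.272, limma), a 1.67-fold difference whose 95% interval ran from 0.02 to 1.46. Psma4, another gene of that ring, stood at 6.06 and 5.72 with PGE2, against 5.44 and 5.04 in control, also without overlap. Its change was 0.65 ± 0.23 (adjusted p = 0.275), and its 4 probes gave 0.59 to 0.69. Psma7, also of that ring, had 5.43 and 5.37 with PGE2, against 5.20 and 4.80 in control (change 0.41 ± 0.20, adjusted p = 0.388). Without control 2 these changes were 0.51 for Psma1, 0.45 for Psma4 and 0.21 for Psma7. The other alpha genes lay between 0.12 (Psma6) and 0.29 (Psma3).

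Among the beta subunits without an active site, Psmb3 had levels of 5.73 and 5.36 with PGE2, against 5.35 and 4.84 in control. The lower PGE2 array lay just above the higher control array, and the change was 0.45 ± 0.26 (adjusted p = 0.446, limma), or 0.19 without control 2 and 0.71 without control 1. Psmb1, Psmb2 and Psmb4 stood at 0.08, 0.32 and 0.26. The active-site gene Psmb5, whose subunit cuts after hydrophobic residues, had 4.26 and 4.12 with PGE2, against 4.04 and 3.57 in control, with a change of 0.38 ± 0.23 (adjusted p = 0.451). Psmb6, whose subunit cuts after acidic residues, had 5.64 and 5.57 with PGE2, against 5.55 and 5.23 in control (0.21 ± 0.19, adjusted p = 0.605). Psmb7, whose subunit cuts after basic residues, had 3.15 and 2.91 with PGE2, against 2.94 and 2.48 in control (0.32 ± 0.23, adjusted p = 0.530). Without control 2 these changes were 0.14 for Psmb5, 0.05 for Psmb6 and 0.09 for Psmb7, and without control 1 they were 0.62, 0.38 and 0.55. In all 3 the control arrays differed from each other by more than the PGE2 arrays did, and the intervals reached from -0.32 at the lowest to 1.01 at the highest. Psmb5 and Psmb6 hold TGACNNNGC in the windows above, and Psma1 and Psma4 do not hold it in theirs. Psmb1, Psmb2 and Psmb7 had no matched window, and whether the motif bears on any change was not tested. Without control 2 the core median was 0.13, with 12 of 14 genes above 0, and without control 1 it was 0.48.

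**Figure D2:**
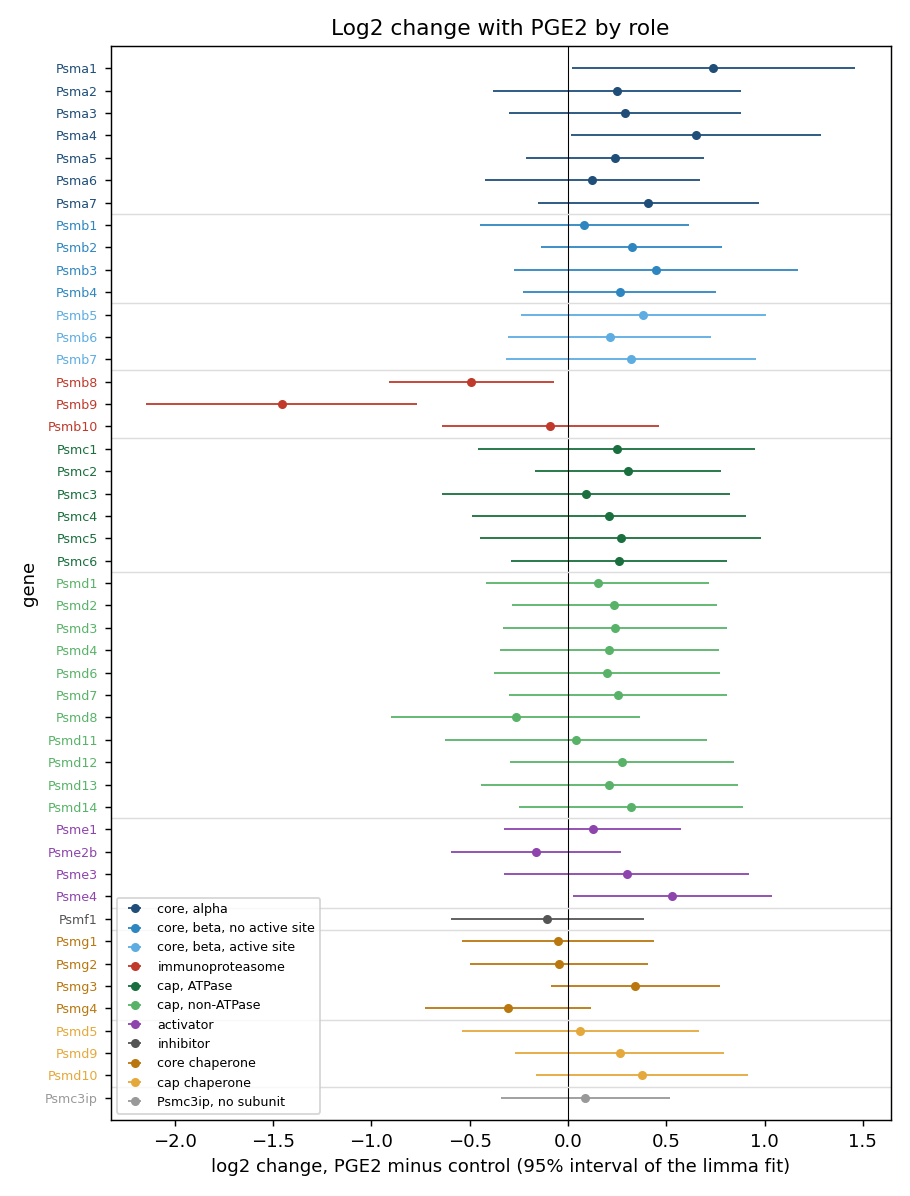
Points are the log2 change (PGE2 minus control) of each tested proteasome gene with the 95% interval of the limma fit, coloured by role. The core and cap genes range from -0.27 (Psmd8) to 0.74 (Psma1) with a median of 0.25. Their intervals include 0 in 29 of 31 genes, and Psmb9 (-1.46) lies apart on the left.

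Of the 17 cap genes 16 had a change above 0. Their median change was 0.24. Both PGE2 arrays were above both control arrays in 5 genes (24.0% of all tested genes) and below in 1 (28.3%). The count above was close to its background, and control 2 was the lowest of the 4 arrays in 16 of the 17. The 6 ATPase genes, whose products form the unfolding ring, ranged from 0.09 (Psmc3) to 0.31 (Psmc2), with a median of 0.25. The 11 non-ATPase genes had a median of 0.21. Psmd14, the deubiquitinase of the cap, stood at 0.32 and Psmd4, a ubiquitin receptor, at 0.21. The scaffold genes Psmd1 and Psmd2, whose products hold the base together, stood at 0.15 and 0.24. The exception was Psmd8, a lid subunit gene, with 2.95 and 2.97 on the PGE2 arrays, against 3.48 and 2.97 on the control arrays. Only control 1 was high, and the change was -0.27 ± 0.23 (adjusted p = 0.598, limma), or -0.01 without control 1 and -0.52 without control 2. Without control 2 the cap median was 0.00 to 2 decimals, with 8 of 17 genes above 0, and without control 1 it was 0.43. Across core and cap, the half-width of the 95% interval was 0.45 to 0.73, and only the intervals of Psma1 and Psma4 did not include 0.

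The immunoproteasome genes stood on the other side of 0. Psmb9, which lies in the MHC region in band 17qB1, had levels of -1.70 and -1.82 on the PGE2 arrays, against -0.02 and -0.59 on the control arrays. Both PGE2 arrays were well below both control arrays, and close to each other. Its change of -1.46 ± 0.25 was 0.364-fold and the largest of the 47 genes in size, with a 95% interval from -2.15 to -0.77, but it did not pass the test over all genes (adjusted p = 0.112, unadjusted p = 0.00396, limma). It was -1.17 without control 1 and -1.74 without control 2, and over all alternative settings it ran from -1.74 to -1.12, with adjusted p from 0.0700 to 0.409. A second Psmb9 probe was below the background criterion on all arrays. Psmb8, in the same band, had -1.47 and -1.56 with PGE2, against -1.04 and -1.01 in control. The groups did not overlap, and the change was -0.49 ± 0.15 (adjusted p = 0.237), or -0.50 without control 1 and -0.48 without control 2. Over all alternative settings the change of Psmb8 ran from -0.78 to -0.23. Psmb10, in band 8qD3, had 3.13 and 3.06 with PGE2, against 3.38 and 2.99 in control. Its groups overlapped (-0.09 ± 0.20, adjusted p = 0.844), and the change was 0.10 without control 1.

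Within each array, the ratio of an inducible gene to the constitutive gene it replaces does not depend on the constant by which the array is scaled. It can depend on background correction and quantile normalization. With both of these changed, Psmb9 stood at -1.12 and Psmb6 at 0.27, against -1.46 and 0.21 in the fit reported. With the mean of the control arrays set to 0, the log2 ratio of Psmb9 to Psmb6 was -1.64 and -1.70 on the PGE2 arrays, against 0.12 and -0.12 on the control arrays, a difference of -1.67 or 0.314-fold. For Psmb8 over Psmb5 it was -0.89 and -0.85 with PGE2, against -0.25 and 0.25 in control, a difference of -0.87 or 0.546-fold. The ratio of Psmb10 to Psmb7 was -0.50 and -0.32 with PGE2, against -0.04 and 0.04 in control, a difference of -0.41 or 0.753-fold. In all 3 pairs both PGE2 arrays were below both control arrays, as in 28.3% of all tested genes taken singly. No such share was counted for ratios, and the 3 ratios come from the same 4 arrays. Psmb10 and Psmb7 each overlapped between the groups on their own. An exact two-sided permutation test gives p = 0.333 for each of the 3 ratios, the smallest that 2 arrays against 2 allow. A ratio shows unequal change of its 2 genes and not which of them moved.

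**Figure D3:**
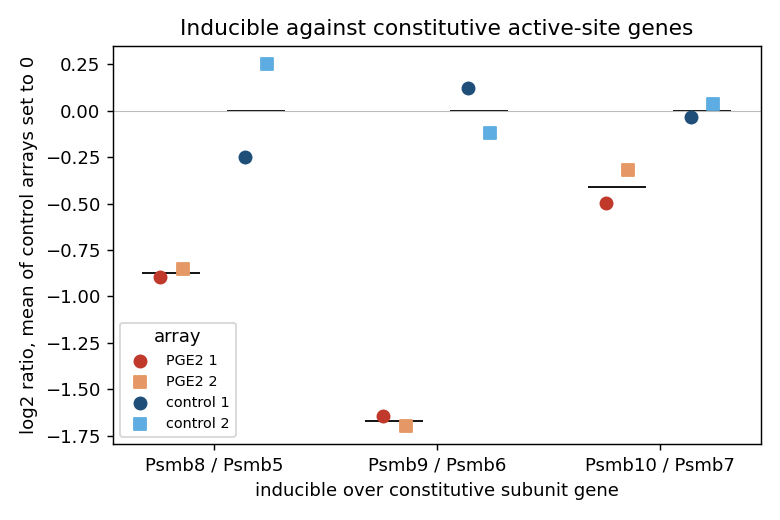
Points are the log2 ratio of an inducible active-site gene to its constitutive partner on each array, with the mean of the control arrays set to 0 and black lines at the group means. All PGE2 points lie below both control points of their pair, by the most in Psmb9 over Psmb6 (-1.67).

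Of the activators, Psme4, a single-chain activator of the nucleus, had levels of 3.60 and 3.38 with PGE2, against 3.07 and 2.84 in control. The groups did not overlap, and the change was 0.53 ± 0.19 (adjusted p = 0.268, limma), or 0.42 without control 2, with a second probe at 0.58. Psme1, an interferon-inducible activator subunit, had 4.18 and 4.12 with PGE2, against 4.12 and 3.92 in control (0.13 ± 0.16, adjusted p = 0.723), and its change was 0.03 without control 2 and 0.22 without control 1. Its partner Psme2 was not analysed here under its own name. The 2 probes of its close copy Psme2b may read both genes, so the value is uncertain. They had 4.94 and 4.96 with PGE2, against 5.19 and 5.04 in control on the brighter probe (-0.16 ± 0.16, adjusted p = 0.633, and -0.09 without control 1). Psme3, which forms a nuclear activator, had -0.13 and 0.35 with PGE2, against -0.13 and -0.25 in control, with PGE2 2 alone high (0.30 ± 0.23, adjusted p = 0.547, and 0.06 without PGE2 2). Psmf1, which encodes a protein that inhibits the core in vitro, had 1.78 and 1.62 with PGE2, against 1.68 and 1.92 in control (-0.11 ± 0.18, adjusted p = 0.791), and its second kept probe gave 0.15. The change of the first was 0.02 without control 2 and -0.23 without control 1.

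The 7 assembly chaperones had a median change of 0.06, with 4 above 0, and did not share a direction. Of the 4 core chaperones, Psmg3 stood at 0.34 ± 0.16 (adjusted p = 0.353, limma), with 1.52 and 1.61 on the PGE2 arrays, against 1.28 and 1.16 on the control arrays. Psmg4 stood at -0.31 ± 0.15 (adjusted p = 0.391), with 0.51 and 0.62 with PGE2, against 0.89 and 0.86 in control. Neither overlapped between the groups, and they pointed in opposite directions. Psmg1 and Psmg2, which act as a pair in building the alpha ring, both stood at -0.05. The cap chaperones Psmd5, Psmd9 and Psmd10 stood at 0.06, 0.26 and 0.38, and Psmd10 at 0.23 without control 2. The median of the chaperones was -0.15 without control 2 and 0.29 without control 1. Psmc3ip, which is not a subunit, stood at 0.09 ± 0.16 (adjusted p = 0.802).

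**Figure D4:**
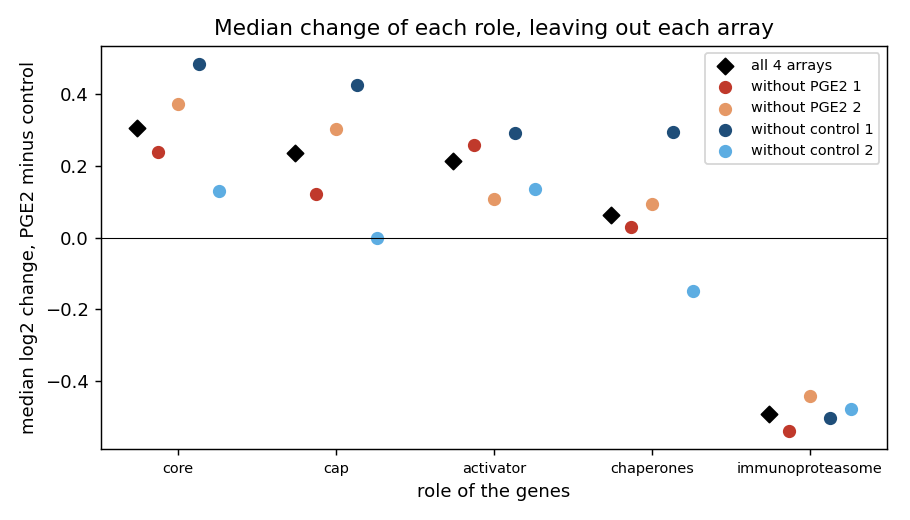
Points are the median log2 change (PGE2 minus control) of the genes of each role, with all 4 arrays (black diamonds) and with each array left out in turn. The cap median ranges from 0.00 without control 2 to 0.43 without control 1. The immunoproteasome median, which in each case is the value of Psmb8 among 3 genes, stays below 0 throughout. Psmb10 alone stood at 0.10 without control 1.

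Probes of the same gene mostly gave like values. Of 27 genes with more than 1 kept probe, 22 had all kept probes on the same side of 0, and the range between the probes of a gene had a median of 0.07. The other 5 genes were Psma3, Psmb2, Psmd1, Psmf1 and Psmg2. The widest range was 0.70, in Psmb2, whose probes gave -0.38 to 0.32. In Psma3 1 dim probe gave -0.22 beside 0.26 and 0.29. Of the 10 probes that were not kept, 7 were designed against transcripts other than RefSeq ones.

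To describe which genes departed from the rest of the complex, each array was also set to the median of its 31 core and cap genes, a choice made after seeing the data. By construction this removes a shift that the complex shares, including that of control 2. It also moved the median change of all tested genes to -0.31, so 0 here is the level of core and cap and not of a typical gene. Values near -0.31 are therefore close to the typical gene. On this scale 28 of the 31 core and cap genes lay within 0.25 of 0. Psmb9 stood at -1.74, with -1.78 and -1.71 on the PGE2 arrays, against 0.15 and -0.15 on the control arrays (adjusted p = 0.0821, limma). The other genes more than 0.25 below 0, a distance chosen after seeing the values, were Psmb8 at -0.78 (adjusted p = 0.132), Psmg4 at -0.59 (0.177), Psmd8 at -0.55 (0.171), Psme2b at -0.45 (0.197), Psmf1 at -0.39 (0.348), Psmb10 at -0.37 (0.222), and Psmg1 and Psmg2 at -0.33 each. More than 0.25 above 0 were Psma1 at 0.46 (adjusted p = 0.207) and Psma4 at 0.36 (0.232), with Psme4 just inside at 0.25 (0.331). None of these genes passed the test. In all of them both PGE2 arrays lay on the same side of both control arrays, but they were picked by the size of this change. On the scale of the fit reported, 52.2% of all tested genes did not overlap. That share was not counted on this scale, so the separation adds nothing to the changes given.

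Genes that work with the proteasome but carry other symbols were described from 4 lists, and none of their genes passed the test over all genes. Of 11 partner and assembly genes, 8 were above 0 with a median change of 0.06. Zfand5, which activates the proteasome, stood at 0.45 ± 0.19, Uchl5, a cap-bound deubiquitinase, at 0.32 ± 0.22, and Akirin2, needed for nuclear import of proteasomes, at -0.23 ± 0.20 (adjusted p = 0.338, 0.504 and 0.585, limma). The 17 genes of ubiquitin, its activating enzymes and shuttle factors had a median of 0.09, with 12 above 0. Faf2 and Ubqln1, a membrane recruiter of VCP and a shuttle, stood at 0.69 ± 0.26 and 0.55 ± 0.24 (adjusted p = 0.289 and 0.335). Rps27a, a fusion of ubiquitin and a ribosomal protein, stood at -0.44 ± 0.17 (adjusted p = 0.297).

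Among 9 genes of NRF1 and NRF2 control, the median was 0.19, and Nfe2l2, which encodes NRF2, differed most. It had levels of 4.12 and 4.22 on the PGE2 arrays, against 3.10 and 3.09 on the control arrays. The groups were far apart relative to their spread, and the change was 1.08 ± 0.15 (adjusted p = 0.0874, limma). Nfe2l1, which encodes NRF1, stood at 0.26 ± 0.29 (adjusted p = 0.678), and the small MAF partner genes Mafg and Maff both at 0.53 (adjusted p = 0.358 and 0.323). Mafk, another small MAF gene, went the other way at -0.39 ± 0.22 (adjusted p = 0.432), with both PGE2 arrays below both control arrays. Of the 9 genes 6 were above 0 and 3 below. Of 10 genes of class I presentation and its interferon control, 8 were below 0, with a median of -0.20. Tap1, whose promoter window overlaps that of Psmb9, stood at -0.84 ± 0.20 (adjusted p = 0.167), with 0.00 and -0.26 with PGE2, against 0.86 and 0.57 in control. B2m, the light chain of class I, stood at -0.78 ± 0.23 (adjusted p = 0.225). Cd74, the class II invariant chain, stood at -0.97 ± 0.66 (adjusted p = 0.503). Its levels were low, at -3.06 and -3.74 with PGE2, against -1.58 and -3.29 in control, so the groups overlapped and only control 1 was high. Irf1, an interferon-activated factor of these genes, stood at -0.02 ± 0.22 (adjusted p = 0.971).

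The labelled cell type and other cell types were checked by marker lists. Of 9 smooth muscle markers, 6 were tested and all had values below 0 (median -1.70), and Myh11, Lmod1 and Des did not pass the filter. Their summed signal, in units of the 75th percentile of the array, was 166 and 262 on the PGE2 arrays, against 916 and 544 on the control arrays. Immune cells carry much immunoproteasome, and of 8 myeloid markers 4 were tested, 2 above and 2 below 0, with sums of 57.0 and 39.2 with PGE2, against 75.9 and 62.4 in control. These sums are mostly the signal of Itgam, by far the brightest of the 4 on every array, which stood at -0.61. Ptprc stood at -0.36, while Cd68 and Cd14 stood at 2.09 and 0.62, so the sums do not give a shared direction. Adgre1, Aif1, Fcgr1 and Lyz2 did not pass the filter. Of 7 lymphoid markers 3 were tested, with sums of 2.80 and 2.57 with PGE2, against 3.40 and 2.64 in control, and Cd3d, Cd79a, Cd8a and Ms4a1 did not pass it. Endothelial sums were 0.228 and 0.839 with PGE2, against 0.574 and 0.676 in control, with 5 of 7 markers not passing. Of 7 fibroblast markers 5 were tested, 3 above and 2 below 0, and they went far apart. Ly6a, a surface protein, rose by 4.20 ± 0.28 (adjusted p = 0.0438, limma), with 4.94 and 4.25 on the PGE2 arrays, against 0.46 and 0.33 on the control arrays, and was not called without control 1 or without control 2. Pi16 and Pdgfra stood at 2.78 and 0.60, and the matrix genes Dcn and Lum at -2.91 and -2.17. The fibroblast sums, in which Dcn is the brightest control signal, were 53.5 and 44.2 with PGE2, against 202 and 91.7 in control. Of 5 epithelial markers 2 were tested, with Krt18 at 0.83 and Cdh1 at -1.45, and their sums were 31.6 and 36.8 with PGE2, against 22.9 and 19.1 in control. The part of these markers in the proteasome values was not tested, and fewer cells of a type cannot be told apart from less RNA per cell.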

How the data were processed

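RNA of 2 PGE2 and 2 control cultures, grouped by sample title, was read on 1 array each. Each deposited scanner file gives the intensity of every spot, extracted with Agilent Feature Extraction 11.5.1.1 per the file headers, although version 12.0.3.1 stands in the submitters' processing notes. The deposited sheet of all arrays holds the same intensity times 1 constant per array and was used for symbols and as an alternative, and its 4 other columns of values per array were not used. All arrays lie on 1 slide. Spots flagged as outliers were left out, which dropped 158 probes. Spots of a probe were averaged on the log2 scale and scaled to the 75th percentile of non-control spots. A probe was kept if well above background on both arrays of a group (26100 probes), and each gene took its brightest kept probe, its symbol updated by gene ID from RefSeq GRCm38.p6. The fit used limma 3.58.1 in R 4.3.3 (lmFit, eBayes, with residual degrees of freedom 2 and prior 2.15), Benjamini-Hochberg adjustment over 17660 tested genes and a threshold of 0.05. It was also run on simulated data with known changes and independent noise. Those data hold no shift shared by the genes of an array, so they do not cover the low values of control 2. Named were any called genes of the proteasome and of the lists, all active-site, immunoproteasome and activator genes, the 6 highest and 6 lowest changes, genes missing the filter, and up to 3 genes of each pathway list with the smallest p. Nfe2l1, Mafk, Irf1, uncalled marker genes, chaperones, ends of ranges, genes whose probes disagreed, cap genes with a known role and Psmc3ip were named after their values were seen. The genes, lists and tests were chosen with earlier results of these data known, and the motifs other than TGACNNNGC were added later. 1 gene of a pathway list is not reported here. Alternatives changed the scaling, background correction, filter, probe rule, arrays, block and variance model.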

Additional observations from a re-analysis of the deposited data

How the results depend on the processing

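None of the 47 proteasome genes passed the test under any of the 15 alternatives, of which 2 (the 75th percentile of kept probes and the centring on core and cap genes) were chosen after seeing the data. Over all tested genes, 118 were called in the fit reported, against 54 with the filter for all 4 arrays, 172 with the replicate block, and 0 on the deposited scaled signal, without the filter on dim probes, with the 75th percentile of kept probes and with the centring on core and cap genes, where 4204, 2685, 3495 and 4709 had an unadjusted limma p under 0.05. Leaving out each array gave 0 to 174 called genes (0 without control 1 or control 2, with 2712 and 2963 at the unadjusted threshold). The deposited scale moved the median of all tested genes to 0.23, and there the median of the 47 genes was 0.50, that of the core 0.56, cap 0.49, activators 0.47 and chaperones 0.32. The immunoproteasome median was -0.23 on that scale, against -0.49 in the fit reported. With background correction and quantile normalization both changed it was -0.31. That scale multiplies each array by 1 constant, so the shift of the 47 genes relative to all genes must stay at 0.27, as in the fit reported. With core and cap as the centre, the medians were 0.0208 for the core, -0.0491 for the cap, -0.0720 for activators, -0.22 for chaperones and -0.78 for the immunoproteasome. Leaving out each array moved the core median between 0.13 and 0.48, the cap between -9.46e-05 and 0.43, the activators between 0.11 and 0.29, the chaperones between -0.15 and 0.29, the immunoproteasome between -0.54 and -0.44 and all 47 genes between 0.04 and 0.40. The sign turned in 8 cases among the 17 named genes, against 247 in which it and the call were kept. These were Psme2b (0.0946), Psmb10 (0.17) and Psmf1 (0.15) on the deposited scale, Psmf1 with the mean of kept probes (0.0240) and without control 2 (0.0150, against -0.226 without control 1), Psmb10 without control 1 (0.10, against -0.282 without control 2), and Psme1 (-0.16) and Psmb6 (-0.0714) with core and cap as the centre. Beyond what each alternative's construction shows, the cause was not tested. Arrays of the same number deviated together (r = 0.42 across genes), but 2 pairs and labels that name no shared handling do not show pairing. With the replicate block Psmb9 stayed at -1.46 (adjusted p = 0.0700, limma). Dim probes limit the data, and no outlier test applies to groups of 2.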
